A study of Mus musculus with 104 samples.

Results

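The 10 transcripts described here, Gja1, Gjb6, Slc1a2, Slc1a3, Aqp4, Apoe, Agt, Ednrb, Gpr37l1 and Ntsr2, are made at high level by astrocytes of the mouse brain, and were measured in RNA drawn into patch pipettes from neurons. They were chosen by name, with earlier results of these data known, as 10 of the 45808 gene rows of a single count table. All 10 were found there. The study made reporters that show Lewy-type protein inclusions in the living brain. Its 104 libraries, each from the contents of 1 pipette, fall by title into 38 experiment and 66 control libraries, all from mouse substantia nigra and all labelled dopaminergic neuron. The series' design text describes the picking of neurons of the pars compacta with α-Syn-6H-EGFP inclusions, made of an α-synuclein fusion protein, from acute slices. It does not say which titles these are or what the control neurons carried, so the groups are called experiment and control. The sources used here do not give the promoter driving the fusion protein or the strain and age of the mice. Pipette contents were made into cDNA by Smart-seq2, which copies whole transcripts without molecular identifiers.

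Astrocytes are glial cells whose fine processes wrap neuronal cell bodies, synapses and blood vessels. They are joined to each other through gap junctions built of connexins, clear glutamate and potassium from the space around neurons, and place water channels on their end-feet at vessels. They also secrete apolipoprotein E and angiotensinogen, and carry receptors for endothelin, neurotensin and prosaposin-derived peptides. A pipette that reaches a neuron in a slice passes through this tissue, and transcripts of neighbouring cells are a known feature of pipette-based sequencing.

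The labelled cell type was checked first. Counts of Th, which encodes tyrosine hydroxylase, and of Slc6a3, the dopamine transporter, were found in each of the 38 experiment and 66 control libraries. Depth was 116567 to 3094036 gene counts in experiment libraries (median 960027) and 153770 to 2577694 in control libraries (median 1039850). Experiment 27 went against that label in part, and it and experiment 52 held the most of the astrocyte transcripts. Experiment 27 had 138 CPM of Th (CPM is the count divided by the library's gene counts and scaled to a fixed total), the lowest of all 104 libraries, beside 18031 CPM of the 10 astrocyte transcripts together, the highest. Experiment 52 had 1302 CPM of Th and 8296 CPM of the astrocyte transcripts. Its Th alone was not exceptional: experiment 3 (1047 CPM), experiment 5 (1262 CPM), control 5 (1128 CPM) and control 7 (1135 CPM) were lower, with 75.2, 330, 132 and 985 CPM of the astrocyte transcripts, and experiment 49 (1304 CPM) was about level. Its sum of pan-neuronal markers, genes of neurons in general, was low at 4819 CPM, and that of experiment 27 was 3874 CPM. The experiment median was 8126 CPM and the lowest control 6907 CPM. Experiment 3, experiment 5, control 5 and control 7 had 11128, 13667, 13826 and 16044 CPM of these markers. Experiment 27 also had the highest mitochondrial share of the experiment libraries, 9.43%. Experiment 52 had the highest sum of oligodendrocyte markers, 10020 CPM, and experiment 27 had 7160 CPM, against medians of 853 CPM in experiment libraries and 602 CPM in control libraries. Values of the 10 transcripts and of the gene lists are therefore also given without experiment 27 and 52. What a pipette took up besides the neuron and what the neuron itself made cannot be told apart from counts.

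All 10 transcripts were higher in the experiment group. Each was at least 1.5-fold higher both by pooled CPM (counts summed over a group's libraries) and by the mean of the library CPM, against 7.77% of the 9113 expressed genes. Since the 10 were chosen with earlier results of these data known, such shares are given as background and not as a test. At least 2-fold higher were 8 of the 10, against 2.35% of expressed genes. The median log2 ratio of pooled CPM, experiment over control, was 2.05 over the 10 and -0.03 over all expressed genes, and their summed pooled CPM was 3.32 times as high. Other measures differed between the groups at the same time. Of 14 expressed dopaminergic markers 4 were at least 1.5-fold lower and 1 higher, Th having a ratio of 0.54, with a median log2 ratio of -0.35. Pan-neuronal markers had a median log2 ratio of -0.23 with 0 of 9 past that fold. The median mitochondrial share was 4.33% in experiment libraries and 2.72% in control libraries, and the median number of genes detected 6916 and 8460 after thinning. Their part in the difference was not tested. Expressed means that pooled CPM over all libraries reached 10 and that 25% or more of either group's libraries held a count. Gjb6 and Ednrb met the second condition through the experiment group alone: Gjb6 was detected in 11 of 38 experiment libraries and 11 of 66 control libraries, and Ednrb in 10 of 38 and 10 of 66. The labels name no animal, so each group is 1 sample, no test was made, and the intervals below cover counting error only.

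A few libraries held much of the excess, and the rest of the distribution was shifted as well. The lowest library was at 0 for each of the 10 transcripts in both groups, and the median library was at 0 in both groups for 8 of them, all but Slc1a2 and Apoe. Experiment 27 alone held 37.4% of the experiment group's counts of the 10 transcripts and experiment 52 another 11.8%. Control 45 held 21.7% of those of the control group. Summed over the 10, libraries ran from 71.2 CPM through a median of 540 CPM to 18031 CPM in experiment, and from 6.15 CPM through a median of 248 CPM to 3020 CPM in control. The lower quartile of that sum was 237 CPM in experiment and 152 CPM in control, and the upper quartile 1053 and 495 CPM. Without experiment 27 and 52, 6 of the 10 were still at least 1.5-fold higher, against 7.69% of expressed genes. The median log2 ratio of the 10 was then 0.81 and the ratio of their sum 1.78. Without experiment 27 alone, 9 were at least 1.5-fold higher, against 7.95% of expressed genes. Without the highest 10% of each group's libraries in microglia and oligodendrocyte markers, 4 were, against 8.45%. With levels taken per ERCC spike-in count in place of per gene count, 5 were, against 0.889%. These counts cover all 10 whether or not they met the expression filter in the libraries left: 5 of 9 that met it were higher without experiment 27 and 52, 8 of 9 without 27 alone, and 3 of 8 without the libraries high in other glial markers.

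**Figure D1:**
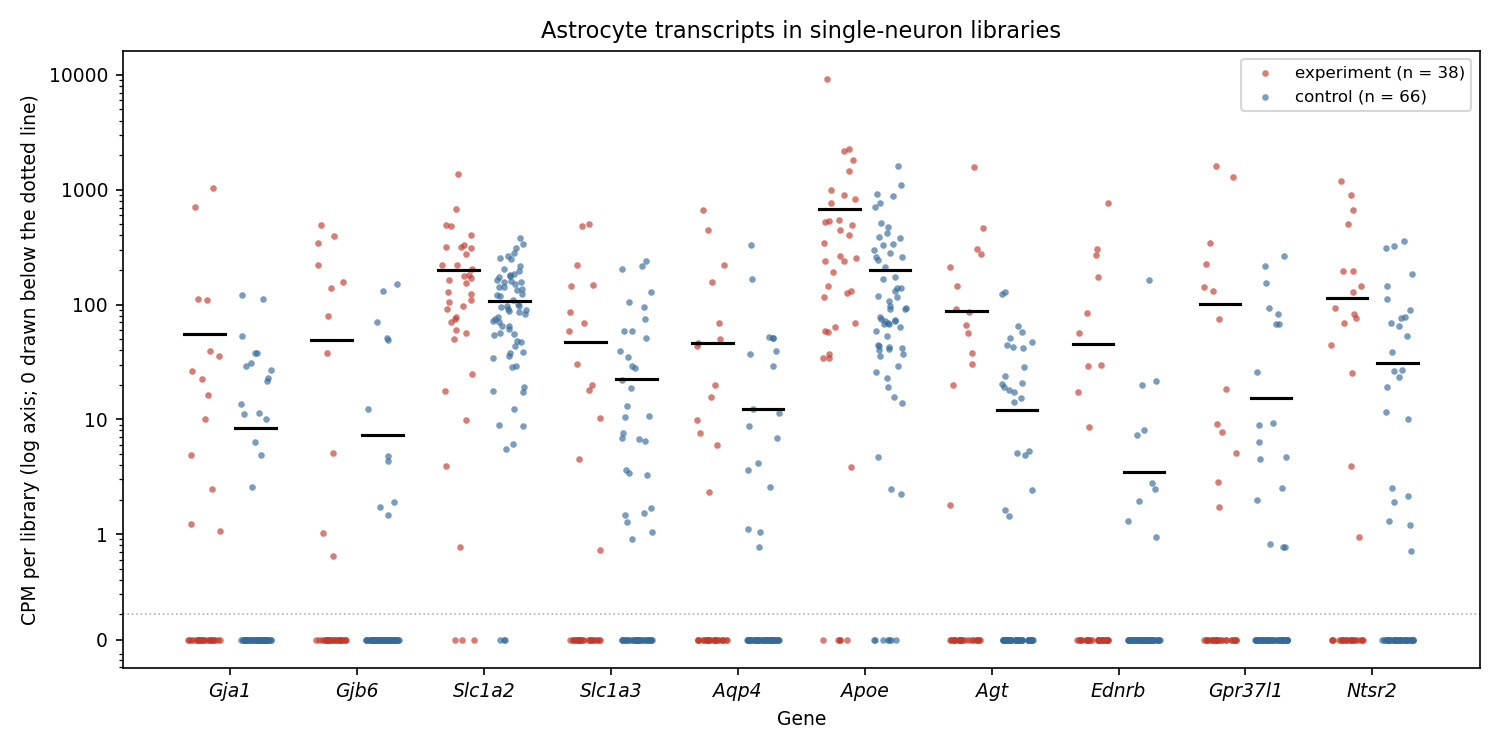
CPM of each of the 10 transcripts in each library on a log axis, with 0 drawn below the dotted line, for experiment (n = 38, red, left) and control (n = 66, blue, right). Bars mark the mean library CPM. The groups overlap for all 10 genes, most libraries of 8 genes sit at 0, and 1 or 2 experiment points stand above the rest.

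Both astrocyte connexins were higher in experiment. Gja1 (chromosome 10, 56377330 to 56402513, GRCm38, plus strand) encodes connexin 43, the main gap junction protein of astrocytes. Its median was 0 CPM in both groups, and its highest library reached 1031 CPM in experiment, in number 27, and 121 CPM in control, in number 45. Experiment 52 followed with 713 CPM and experiment 37 with 112 CPM, so only those 2 experiment libraries exceeded every control. Pooled, Gja1 was at 59.1 CPM in experiment and 10.02 CPM in control, a ratio of 5.90 (95% counting interval 5.43 to 6.42), and 80.0% of its experiment counts came from libraries 27 and 52. Without them the ratio was 1.25.

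Gjb6 (chromosome 14, 57123303 to 57133611, minus strand) encodes connexin 30, the other connexin of mature astrocytes. Its highest libraries were experiment 52 with 494 CPM, 27 with 394 CPM and 24 with 345 CPM, against 150 CPM in control 10, and its median was 0 CPM in both groups. Above the highest control were 5 experiment libraries. Pooled CPM was 41.1 in experiment and 9.21 in control, 4.46 times as high (4.08 to 4.89), and 2.10 times without experiment 27 and 52. Of a list of 9 connexin genes, Gja1 and Gjb6 were the only 2 that counted as expressed. Gjb2, a connexin of meningeal cells, had 16 counts in all in experiment and 41 in control, or 0.40 and 0.55 CPM pooled. Gjd2, the connexin of electrical synapses between neurons, had 97 and 111 counts. Relative to depth that was higher in experiment, 2.41 against 1.49 CPM, a ratio of 1.62.

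The glutamate transporters were present in most libraries or in a large minority. Slc1a2 (chromosome 2, 102658659 to 102790784, plus strand) encodes GLT-1, which takes up most synaptic glutamate in the forebrain and is also made at low level by some neurons. It was detected in 35 of 38 experiment libraries and 63 of 66 control libraries. Its median was 125 CPM in experiment and 88.6 CPM in control, and its highest library 1373 CPM in experiment 27 and 377 CPM in control 27. Of the 10 it depended least on experiment 27 and 52, which held 27.7% of its experiment counts: pooled CPM was 207 in experiment and 98.8 in control, a ratio of 2.09 (2.03 to 2.16), or 1.60 without them. It overlaps an antisense gene, Gm13872, and since no source used here says whether counting used strand, reads of the pair cannot be told apart.

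Slc1a3 (chromosome 15, 8634124 to 8710764, minus strand) encodes GLAST, the other astrocyte glutamate transporter. It had the smallest pooled ratio of the 10. Pooled CPM was 48.2 in experiment and 24.99 in control, 1.93 times as high (1.81 to 2.06), and 0.937 times, that is lower in experiment, without libraries 27 and 52. Those had 487 and 507 CPM, experiment 49 followed with 219 CPM, and control 1 was the highest control with 238 CPM. The median was 0 CPM in both groups, and it was detected in 14 of 38 experiment libraries and 32 of 66 control libraries. Slc1a3 overlaps Gm37310 on the same strand, and reads there could have been counted for either gene.

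Other genes of glutamate handling were described from a list of 12, of which 9 were expressed. At least 1.5-fold higher in experiment were 4, the 2 transporters above, Glul, the glutamine synthetase of astrocytes, with a ratio of 1.97, and Slc38a2, a glutamine transporter, with 154.8 CPM in experiment and 70.1 CPM in control (ratio 2.21). Slc1a1, the glutamate transporter EAAC1 of neurons, was the only one lower, with 11.6 CPM in experiment and 18.2 CPM in control (ratio 0.64). Without experiment 27 and 52, only Slc38a2 was still higher by both measures (2.26), with Glul at 1.75 by pooled CPM. The neutral amino acid transporter Slc1a4 (1.37), the glutamate dehydrogenase Glud1 (1.10) and the glutamine transporter Slc38a1 (1.06) lay between the thresholds.

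Aqp4, on chromosome 18, encodes aquaporin 4, the water channel of astrocyte end-feet. Its median was 0 CPM in both groups, and its highest libraries were experiment 27 with 668 CPM, experiment 52 with 444 CPM and experiment 31 with 222 CPM, against 328 CPM in control 10. Pooled CPM was 46.8 in experiment and 14.4 in control, a ratio of 3.24 (3.01 to 3.50), and 64.7% of the experiment counts came from libraries 27 and 52. The ratio was 1.21 without them. Aqp4 overlaps an antisense gene, AC133525.2, with the same limit as above. Of 7 genes of the perivascular end-foot, 6 were expressed, and besides Aqp4 only Mlc1, a membrane protein found at the same contacts, was at least 1.5-fold higher (ratio 4.29, or 1.94 without experiment 27 and 52). Kcnj10, the potassium channel Kir4.1 of the same membranes, had a ratio of 0.85, and of 0.46 without those libraries. Dag1, the dystroglycan that links end-feet to the vessel's basal lamina, had 1.23 and Dtna, a dystrobrevin of the same complex, 1.21.

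Apoe was the most abundant of the 10. It lies on chromosome 7 (19696109 to 19699188, minus strand) and encodes apolipoprotein E, the lipid carrier that astrocytes secrete and that microglia make too. Libraries ran from 0 through a median of 239 CPM to 9255 CPM in experiment, and from 0 through a median of 74.5 CPM to 1600 CPM in control. It was detected in 33 of 38 experiment libraries and 59 of 66 control libraries, so this was a difference in level more than in detection. The highest were experiment 27, then 49 with 2265 CPM and 52 with 2186 CPM, against control 45. Pooled CPM was 741 in experiment and 226 in control, a ratio of 3.28 (3.22 to 3.35), and of 1.90 without libraries 27 and 52. Per kilobase of exon, Apoe stood at 347 CPM in experiment and 106 CPM in control. The next highest of the 10 on that scale was Agt in experiment, at 52.5 CPM per kilobase, with 8.07 in control, where Gpr37l1 was higher at 9.44. The lowest on that scale were Slc1a3 in experiment, at 5.64 CPM per kilobase, and Ednrb in control, at 0.870. Among 10 genes of apolipoprotein E lipid transport, 9 were expressed, and 2 were at least 1.5-fold higher, Apoe among them, or Apoe alone without experiment 27 and 52. Lrp1, a receptor of apolipoprotein E, had a ratio of 0.70, or 0.66 without them. The receptors Vldlr (0.77) and Lrp8 (0.73), the sorting receptor Sorl1 (0.80), the lipid exporters Abca1 (0.93, or 0.64 without the same libraries) and Abcg1 (1.07) and another apolipoprotein, Clu (0.89), were within 1.5-fold over all libraries.

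Agt (chromosome 8, 124556534 to 124569706, minus strand) encodes angiotensinogen, the precursor of the angiotensins, which astrocytes make in the brain. Above the highest control were 6 experiment libraries: number 27 stood at 1572 CPM, 52 at 460 CPM and 43 at 303 CPM, and control 1 at 130 CPM. The median was 0 CPM in both groups. Pooled CPM was 99.2 in experiment and 15.3 in control, 6.50 times as high (6.08 to 6.95), and 2.79 times without experiment 27 and 52. Of 11 genes of the renin-angiotensin system 3 were expressed, and only Agt was higher. Atp6ap2, the prorenin receptor, was abundant, with 754 CPM in experiment and 885 CPM in control (ratio 0.85), and Lnpep, a peptidase that binds angiotensin IV, had a ratio of 0.82. The other 8 were low and went both ways. Ren1, renin, had 0 counts in both groups. Ace, the enzyme that makes angiotensin II, had 162 counts in experiment and 878 in control (4.03 and 11.8 CPM pooled). Agtr2, a receptor of angiotensin II, had 37 in experiment and 331 in control (0.92 and 4.45 CPM). Mas1, the receptor of angiotensin-(1-7), had 106 in experiment, all in 2 libraries, and 0 in control. Agtr1b had 21 in experiment, all in 1 library, and 0 in control. Agtr1a had 0 in experiment and 43 in control, all in 3 libraries, and Enpep had 8 and 5 (0.20 and 0.07 CPM).

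The stretch before the start of 3 of the genes is printed because these promoters each hold 2 of 3 short motifs searched, the SOX core ACAAT, the NFI half-site TTGGC and the TATA box TATAAA. SOX9 and NFIA, which bind the first and second of these in general, are transcription factors of astrocyte development. The sequences are RefSeq's, build GRCm38.p6, 250 bases ending just before the annotated start, 5′ to 3′ on the gene's strand, all 3 on the minus strand. Capitals mark a match on either strand (ATTGT and TTTATA are matches to ACAAT and TATAAA on the other strand), and no 2 matches overlap. Promoters were found for 9 of the 10 genes.
Apoe, chr7:19699189-19699438: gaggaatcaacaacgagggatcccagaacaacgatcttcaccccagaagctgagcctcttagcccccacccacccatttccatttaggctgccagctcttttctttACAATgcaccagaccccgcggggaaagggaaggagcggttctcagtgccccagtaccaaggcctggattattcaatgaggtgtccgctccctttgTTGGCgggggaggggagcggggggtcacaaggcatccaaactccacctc
Agt, chr8:124569707-124569956: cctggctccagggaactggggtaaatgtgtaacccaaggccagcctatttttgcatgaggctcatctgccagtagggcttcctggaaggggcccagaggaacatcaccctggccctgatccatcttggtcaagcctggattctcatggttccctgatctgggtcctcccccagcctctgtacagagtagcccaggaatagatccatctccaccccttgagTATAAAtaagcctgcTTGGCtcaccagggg
Slc1a3, chr15:8710808-8711057: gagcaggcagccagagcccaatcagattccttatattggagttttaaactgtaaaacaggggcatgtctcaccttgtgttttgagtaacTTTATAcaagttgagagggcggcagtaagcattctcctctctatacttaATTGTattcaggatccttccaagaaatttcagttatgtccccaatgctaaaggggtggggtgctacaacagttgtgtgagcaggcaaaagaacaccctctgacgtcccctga
Of the 9, ACAAT was in 2, TTGGC in 5 and TATAAA in 2, against 28.3%, 41.9% and 12.97% of all 27025 promoters of this length. These are letter matches and say nothing about binding.

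The receptors held the largest ratio. Ednrb (chromosome 14, 103814625 to 103844402, minus strand) encodes the endothelin B receptor, carried in the adult brain mainly by astrocytes. Its median was 0 CPM in both groups and its highest library 760 CPM in experiment 27 and 163 CPM in control 43. Experiment 52 had 307 CPM and experiment 6 had 273 CPM. Control 43 stood apart within its group, since the next control, number 5, was at 21.4 CPM and 59.4% of the group's Ednrb counts lay in number 43. Pooled CPM was 43.1 in experiment and 3.71 in control, a ratio of 11.6 (10.2 to 13.2), and of 3.67 without experiment 27 and 52. Of its ligand genes, Edn1 had 7 counts in all in experiment and 19 in control (0.17 and 0.26 CPM pooled), and Edn2 and Edn3 had 0 in both groups. Ece1, which cuts the endothelin precursors, had a ratio of 0.66 and its relative Ece2 of 0.71.

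Gpr37l1 (chromosome 1, 135160234 to 135167681, minus strand) encodes a receptor of astrocytes for which prosaposin-derived peptides have been proposed as ligands. It was the only transcript besides Gjb6 and Slc1a3 that was higher in experiment 52, with 1604 CPM, than in 27, with 1292 CPM. The third was experiment 21 with 343 CPM, and the highest control was number 66 with 266 CPM. The median was 0 CPM in both groups. Pooled CPM was 107 in experiment and 21.4 in control, a ratio of 5.01 (4.73 to 5.31), or 1.62 without the 2 libraries. Its relative Gpr37, a receptor of oligodendrocytes and neurons, had a ratio of 1.34, and Psap, the prosaposin gene, of 1.08.

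Ntsr2 (chromosome 12, 16653382 to 16660227, plus strand) encodes neurotensin receptor 2, the neurotensin receptor of astrocytes. Its highest libraries were experiment 27 with 1199 CPM, 52 with 901 CPM and 31 with 668 CPM, against 354 CPM in control 36, with medians of 0 CPM in both groups. Pooled CPM was 110 in experiment and 28.7 in control, a ratio of 3.82 (3.63 to 4.02), or 1.95 without experiment 27 and 52. The receptor of dopaminergic neurons, Ntsr1, was on the other side, with 167 CPM in experiment and 306 CPM in control (ratio 0.55). Ntsr1 was detected in 33 of 38 experiment libraries and 64 of 66 control libraries, and stood at 0 in experiment 27, where Ntsr2 was highest. Sort1, sortilin, a further neurotensin-binding protein, had a ratio of 0.83.

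**Figure D2:**
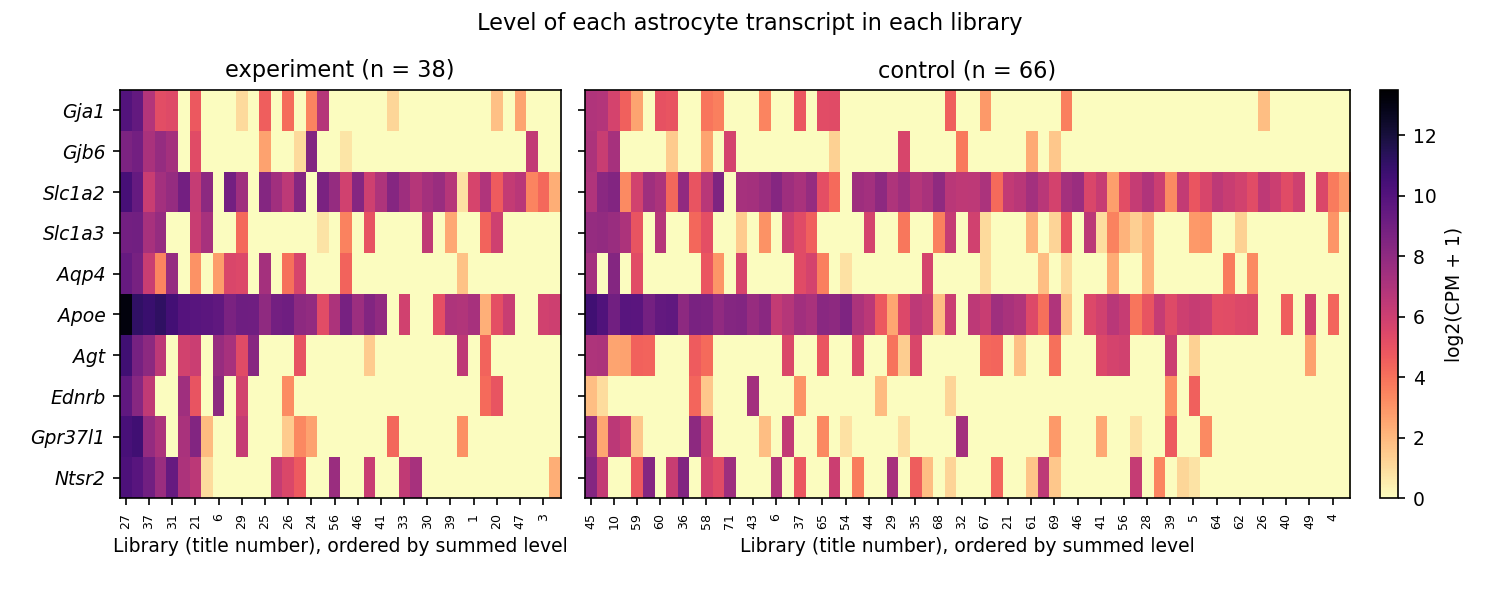
Level of each transcript, as log2(CPM + 1), in each experiment library (left, n = 38) and control library (right, n = 66), ordered by their sum, highest first. Slc1a2 and Apoe are filled across most libraries of both groups, and the other 8 are filled together in few, with all 10 above 0 in experiment 27, 52, 37 and 21 and in control 45 and 58.

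Counts in single libraries were compared after each was thinned to 400000 counts, which left 34 experiment and 60 control libraries and left out 4 and 6 shallower ones. The median number of the 10 transcripts with a count was 4 in both groups. At 5 or more counts it was 3 in both. The spread was wider in experiment: all 10 were present in 3 of 34 experiment libraries (8.82%, exact binomial interval 1.86 to 23.7), numbers 27, 52 and 37, and in 1 of 60 control libraries, number 58. At least 8 were present in 5 experiment libraries (14.7%) and 5 control libraries (8.33%). At the low end, 2 or fewer were present in 11 of 34 and in 11 of 60. Per gene, shares of libraries differed less than levels. Gja1 was present in 29.4% of experiment libraries (15.1 to 47.5) and 28.3% of control libraries (17.5 to 41.4), and Slc1a3 in 13 of 34 and 25 of 60. The widest gaps were those of Ednrb, in 9 of 34 experiment libraries against 7 of 60 control ones, and Gjb6, in 9 of 34 against 8 of 60.

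**Figure D3:**
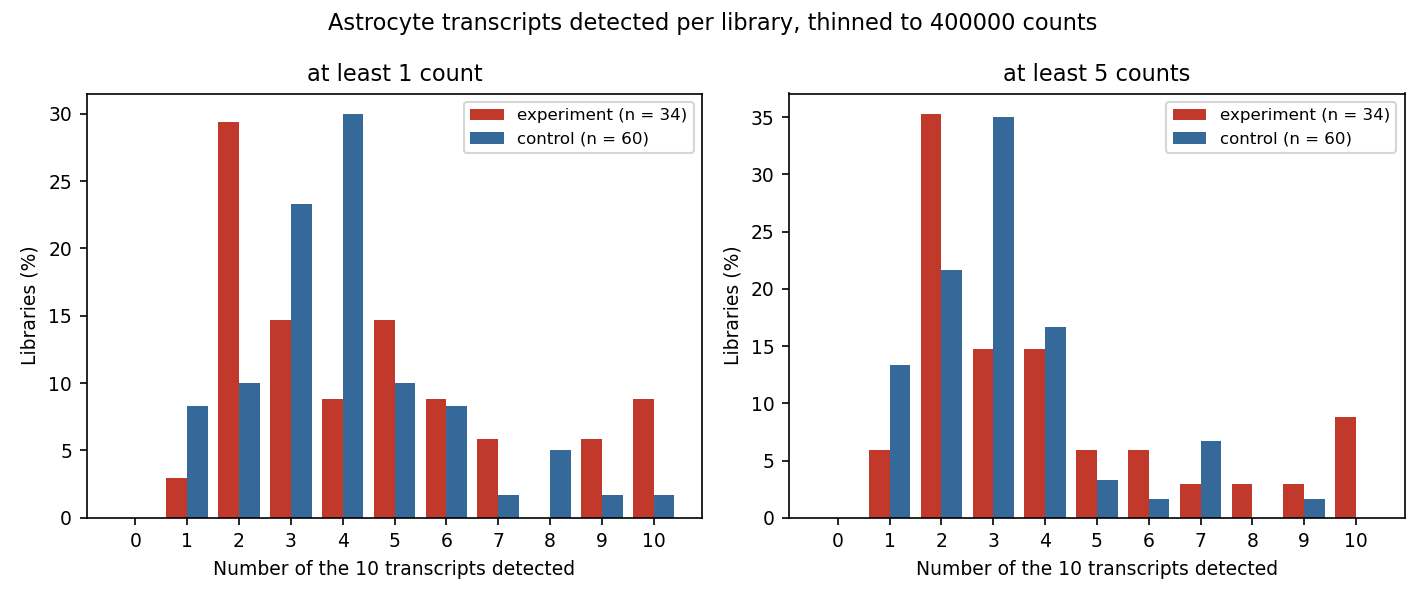
Share of libraries (%) by how many of the 10 transcripts they held at 1 count or more (left) and 5 counts or more (right), thinned to 400000 counts, in experiment (n = 34, red) and control (n = 60, blue). In the left panel experiment has a larger share of libraries at 2 and at 10 transcripts, and control more at 3 and 4, around the same median of 4 at 1 count or more.

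The libraries with all 10 were not alike in level. Control 58 had 714 CPM of the 10 together beside 9278 CPM of Th, and its Gjb6 rested on 5 counts and its Ednrb on 2. Experiment 37 had 3446 CPM of the 10 beside 3439 CPM of Th, and control 45 had 3020 CPM beside 8178 CPM. The make-up of the sum varied as well. Apoe gave 51.3% of it in experiment 27, 26.4% in experiment 52 and 52.98% in experiment 37, against 52.99% in control 45. Gpr37l1 gave 19.3% in experiment 52 and 7.17% in experiment 27.

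Co-detection was described by Spearman's rho of the thinned levels for each of the 45 pairs of transcripts. Among 34 experiment libraries it ran from 0.08, for Slc1a2 and Slc1a3, to 0.72, for Gja1 and Gjb6, with a median of 0.44 and all 45 above 0. Without experiment 27 and 52 the median was 0.28, with 42 pairs above 0. Among 60 control libraries it ran from -0.16, for Slc1a3 and Ntsr2, to 0.55, for Agt and Gpr37l1, with a median of 0.18 and 37 above 0. These are descriptions, since genes of 1 library share its source even after thinning to equal counts. The connexin pair was present together in 7 experiment libraries, out of 10 with Gja1 and 9 with Gjb6, and in 4 control libraries, out of 17 with Gja1 and 8 with Gjb6. Agt and Gpr37l1 were together in 9 experiment libraries, out of 13 with Agt and 11 with Gpr37l1, and in 12 control libraries, out of 22 and 15. Agt was never seen without Apoe, in 13 of 13 experiment and 22 of 22 control libraries with Agt. Apoe itself was present in 29 of the 34 experiment and 53 of the 60 control libraries, so most would hold it in any case. Nor was this particular to Agt. Ednrb was never seen without Apoe either, in 9 experiment and 7 control libraries. Gja1, Slc1a3, Aqp4, Ednrb and Gpr37l1 were never seen without Slc1a2, present in 33 and 57 libraries.

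The records list the libraries in 6 blocks of titles, which the labels do not call batches, and the difference was not the same in each. In the block of experiment 20 to 35 and control 31 to 37, the summed pooled CPM of the 10 was 3178 in experiment and 321 in control, a ratio of 9.90, or 3.41 without experiment 27. In the block of experiment 36 to 40 and control 38 to 41 it was 1250 and 104, a ratio of 11.98, or 4.79 without experiment 37. In the last block, experiment 49 to 56 and control 56 to 72, it was 2544 and 422, a ratio of 6.02, or 3.03 without experiment 52. In each of these 3 blocks all 10 were at least 1.5-fold higher in experiment. With so few libraries many genes were: 17.35%, 26.53% and 24.96% of the genes expressed in the blocks, in the same order. The other 3 went the opposite way: 516 CPM in experiment and 612 CPM in control in the first block (ratio 0.843, or 1.04 without control 1), 71.2 and 287 in the block with experiment 13 alone (0.248), and 384 and 570 in the block of experiment 41 to 48 (0.674, or 1.58 without control 45). The median library of the first block was at 535 CPM in experiment and 503 CPM in control, and that of the block of experiment 41 to 48 at 256 and 251 CPM, so pooled sums there turn on the highest libraries. In these opposite blocks, in the same order, 5, 5 and 8 of the 10 were at least 1.5-fold lower. Of expressed genes 28.14%, 49.64% and 29.73% were. Among transcripts that met the expression filter there, 4 of 9, 5 of 6 and 5 of 7 were lower. At least 1.5-fold higher were 2, 4 and 2 of the 10, against 18.48%, 26.25% and 18.87%. The 4 higher beside experiment 13 had 0 counts in it, raised to 3. The difference between blocks was not tested. Within the 2 larger title sets, which control titles mark by a change of letter case, the sum was 3.80 times as high in the first (21 experiment and 31 control libraries) and 2.70 times in the second (17 and 35). At least 1.5-fold higher were 9 of the 10 in the first, against 9.56% of expressed genes, and all 10 in the second, against 14.5%, of which 8 met the expression filter there.

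**Figure D4:**
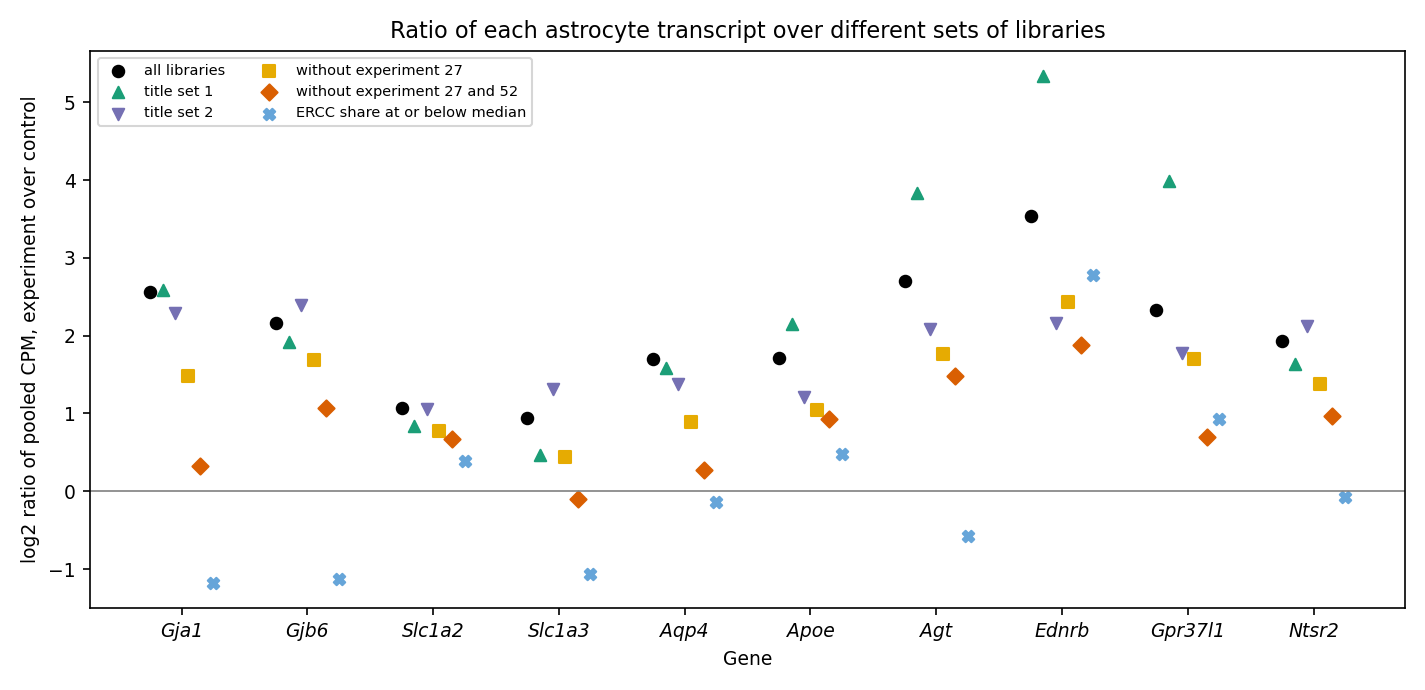
The log2 ratio of pooled CPM, experiment over control, for each transcript over all libraries, within each title set, without experiment 27, without experiment 27 and 52, and in libraries whose share of ERCC spike-in counts was at or below the median. Slc1a2, Apoe, Ednrb and Gpr37l1 are above 0 in each set of libraries drawn. Slc1a3 lies below 0 without experiment 27 and 52, and 6 of the 10 lie below 0 among libraries low in ERCC share.

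The share of ERCC spike-in counts, RNA of known amount added to each lysate, moved with the result. It had a median of 0.42% in experiment and 0.25% in control. Among the 52 libraries at or below the overall median share, 12 experiment and 40 control, 2 of the 10 were at least 1.5-fold higher, against 11.0% of expressed genes, and 3 at least 1.5-fold lower, against 17.2%. Of the 2 higher, 1 met the expression filter there. The median log2 ratio of the 10 was -0.11. Among the 26 experiment and 26 control libraries above it, all 10 were higher, against 12.5%, with a median log2 ratio of 3.41. Experiment 27 (0.604%) and 52 (1.09%) are among these, and without them 9 were higher, against 12.5%, with a median log2 ratio of 1.87. The part of spike-in share in the difference was not tested.

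Other markers of astrocytes were read from a list of 36, of which 35 were in the table and 22 were expressed. At least 1.5-fold higher were 12 and lower 0, with a median log2 ratio of 0.88. Among the 12, Sox9, F3 and Mfge8 counted as expressed through the experiment group alone, which raises such a count. Sox9 was detected in 11 of 38 experiment and 16 of 66 control libraries, F3 in 10 and 11, and Mfge8 in 11 and 9. Htra1, a secreted protease, had a ratio of 6.67, F3, tissue factor, of 4.02, Sdc4, a syndecan, of 3.32, S100b of 2.77 and Sox9 of 2.01. The intermediate filament gene Gfap, with 1.36, Aldoc, with 1.39, and Clu, with 0.89, were below that fold. Without experiment 27 and 52, 5 of the 22 were still higher and 2 lower, with a median log2 ratio of 0.10. Htra1 then had a ratio of 2.91, S100b of 2.19, Sdc4 of 1.91, F3 of 1.49 and Sox9 of 0.62. The sum of the 35 was 635 to 23505 CPM in experiment (median 2815) and 1224 to 7005 CPM in control (median 2683). Its Spearman's rho with the sum of the 10 transcripts was 0.62 over 38 experiment libraries and 0.48 over 66 control libraries. It was 0.56 over the 36 experiment libraries without 27 and 52.

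**Figure D5:**
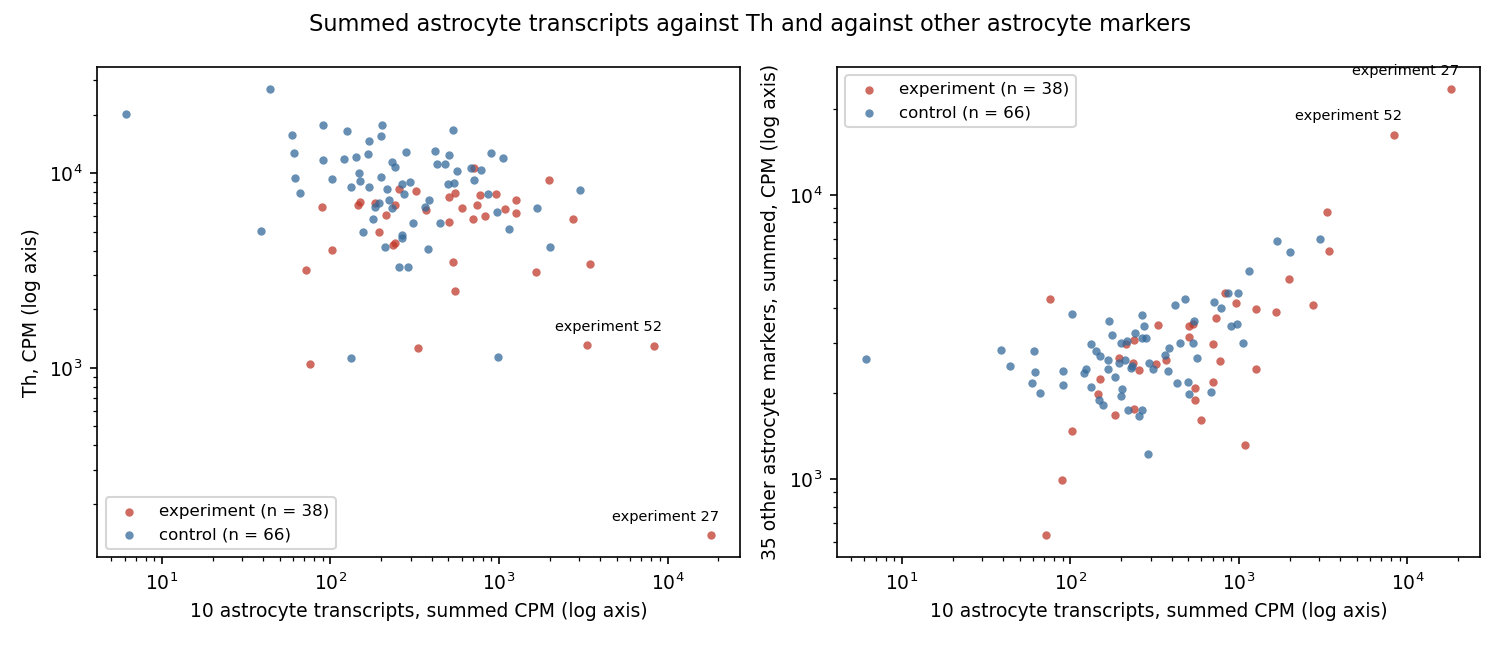
Each library's summed CPM of the 10 transcripts (x, log axis) against its CPM of Th (left) and its summed CPM of 35 other astrocyte markers (right), both on log axes, for experiment (n = 38, red) and control (n = 66, blue). Experiment 27 stands alone at 138 CPM of Th, and experiment 27 and 52 are highest on the right, at 23505 and 16288 CPM.

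Markers of other cells were read in the same way, and rho without experiment 27 and 52 is given last. Microglia markers had a median sum of 187 CPM in experiment and 143 CPM in control, 2 of 8 expressed were at least 1.5-fold higher, and rho with the 10 was 0.31 in experiment, 0.01 in control and 0.38 without the 2 libraries. In experiment 27 the microglia sum was 95.9 CPM, with Cx3cr1, Csf1r, P2ry12 and Tmem119 at 0. Oligodendrocyte markers had 1 of 8 higher, Mobp, with a ratio of 2.65, and a rho of 0.28 in experiment, 0.32 in control and 0.16 without the 2. Markers of oligodendrocyte precursors had a median sum of 30.3 CPM in experiment and 78.2 CPM in control, and 1 of 2 expressed was lower. That was Lhfpl3, with a ratio of 0.29 and medians of 4.61 and 32.5 CPM. The other, Olig1, had a ratio of 1.35 and a median of 0 in both groups. For this list rho was 0.38 in both groups and 0.30 without experiment 27 and 52. Of 4 expressed markers of GABAergic neurons, the neighbouring inhibitory cells, 3 were at least 1.5-fold higher, with a median log2 ratio of 1.64, above that of the other astrocyte markers, and a median sum of 139.96 CPM in experiment and 51.1 CPM in control. Their rho with the 10 was 0.15 in experiment, 0.28 in control and 0.07 without the 2, and 3 of 4 were higher without them. None of the 10 endothelial markers was expressed, their sum had a median of 0 in both groups, and it reached at most 52.3 CPM in experiment and 67.6 CPM in control. Of these markers Cldn5, Slco1a4 and Ly6a had 0 counts in both groups, and the others had some. Pooled CPM in experiment and control was 1.97 and 0.35 for Tek, 0.52 and 4.00 for Itm2a, and 0.02 and 0.94 for Kdr. It was 0.47 and 0.74 for Flt1, 0.40 and 0.47 for Ly6c1, 0.10 and 0 for Cdh5, and 0 and 0.04 for Pecam1. With the summed dopaminergic markers, Spearman's rho was -0.19 in experiment, -0.35 in control and -0.05 without the 2. The part of any of these cell types in the difference was not tested.

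The genes whose levels followed the sum of the 10 most closely were found among 8778 expressed genes by the mean of Spearman's rho over 34 experiment and over 60 control thinned libraries, whose median over all those genes was 0.00. The first 15 include 6 of the other astrocyte list. Acsbg1, an acyl-CoA synthetase, had a rho of 0.77 in experiment and 0.36 in control, and Mfge8, a secreted bridging protein of phagocytosis, 0.53 and 0.51. Mlc1 had 0.64 and 0.38 and Kcnj10 had 0.63 and 0.31, although pooled Kcnj10 was no higher in experiment. The secreted matrix proteins Sparc, at 0.65 and 0.37, and Sparcl1, at 0.54 and 0.45, were among the first 5, Sparcl1 being on the list and Sparc not. F3, also on the list, was last of the 15, at 0.50 and 0.35. The other 8 were S100a1, Cmtm5, Ift27, Mlec, Ndrg2, Olig1, Pla2g7 and Sepp1, with a rho of 0.48 to 0.69 in experiment and 0.16 to 0.41 in control. Without experiment 27 and 52, rho in experiment was 0.71 for Acsbg1, and 0.37 or more for each of the 15. Levels in 1 library, here thinned to equal counts, still share its source.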

How the data were processed

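The table deposited by the authors holds raw counts of reads for each gene symbol in 104 libraries. Pipette RNA was made into cDNA by Smart-seq2 and sequenced from HyperPlus kit libraries, per the labels' protocols. The submitters' processing notes list STAR 2.5.3a, featureCounts 1.5.3 and mm10, with no roles. Whether counting used strand, and how reads matching several genes were handled, is not stated there. Beside 45808 gene rows, 92 ERCC rows were kept out of library totals. No 2 libraries among 5356 pairs had identical counts.

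Groups came from titles. Because the labels tie no pipette to an animal, a group is 1 sample and no test was made. A count model was therefore not used, and edgeR 4.0.16 (R 4.3.3) served only for the TMMwsp scaling alternative. From the counts, CPM per library and pooled per group were computed in Python 3.11.15. Ratios of pooled CPM carry the exact binomial 95% interval of the summed counts, and group sums under 3 counts were raised to 3. Reads have no molecular identifiers and neurons differ, so intervals cover counting error only. A gene counted as higher at 1.5-fold or more by both pooled and mean library CPM. Thinning to 400000 counts was by random draw. The steps were tested on simulated data.

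The 10 transcripts and all lists were chosen with earlier results of these data known. The 10 were named in full, list genes of a pathway where expressed, and the 15 most similar genes by mean rho. List genes named that were not expressed (Gjb2, Gjd2, Ren1, Ace, Agtr1a, Agtr1b, Agtr2, Enpep, Mas1, Edn1, Edn2, Edn3) and the other marker genes named were chosen after their values were seen. Gene positions are from GENCODE M21 (GRCm38), promoters from RefSeq (GRCm38.p6), which were read only by gene symbol. Alternatives were mean library CPM, TMMwsp scaling, leaving out mitochondrial genes, scaling by ERCC counts, each title set, leaving out libraries high in the 10 or in other glial markers, splits by ERCC share and genes detected, and thinning. Leaving out experiment 27, alone and with 52, also among libraries high in ERCC share, was chosen after seeing the data. A few list genes are not reported here.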

Additional observations from a re-analysis of the deposited data

How the results depend on the processing

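All 10 transcripts were at least 1.5-fold higher over all libraries, with a median log2 ratio of 2.05 and a summed ratio of 3.32. At 2-fold, 8 were. With the 1.5-fold threshold the number was 9 or 10 in each alternative except 4: 5 with levels per ERCC count, 4 without the highest 10% of libraries in other glial markers, 2 among libraries low in ERCC share, and 6 without experiment 27 and 52. In the same order the median log2 ratio was 1.30, 0.58, -0.11 and 0.81, and the summed ratio 1.98, 1.64, 1.26 and 1.78. The share of expressed genes that were higher was, in that order too, 0.889%, 8.45%, 11.0% and 7.69%. It was 10.3% by mean library CPM, 6.30% with TMMwsp and 8.26% without mitochondrial genes. With many genes detected and after thinning it was 11.1%. Without the highest library of each group it was 7.90%, and 9 of the 10 met the expression filter there, all 9 higher. Per ERCC count, all expressed genes moved to a median of -0.78. Among libraries low in ERCC share the ratio was 0.444 for Gja1, 0.459 for Gjb6, 0.479 for Slc1a3, 0.910 for Aqp4, 0.672 for Agt and 0.948 for Ntsr2. Slc1a3 was at 0.691 once the highest libraries in glial markers were left out and at 0.937 without experiment 27 and 52. Without experiment 27 alone, 9 transcripts were higher, with a median of 1.43 and a summed ratio of 2.15. Medians were 2.33 by mean library CPM, 1.93 in the second title set, 3.41 among libraries high in ERCC share, 2.96 among those with many genes detected and 2.37 after thinning. Summed ratios were 3.42 by mean library CPM, 3.18 with TMMwsp, 3.80 and 2.70 in the title sets, 2.65 without the highest library of each group, 6.09 at high ERCC share, 6.82 with many genes and 3.51 after thinning. The cause was not tested. Among libraries high in ERCC share without experiment 27 and 52, the median was 1.87 and the summed ratio 2.82. Ednrb was above 1.5 in each of these alternatives, but at 0.266 in the block of experiment 41 to 48. The median number of transcripts per library differed by at most 1 between groups in the alternatives but was 2.5 against 4 in the block of experiment 1 to 7 and 6 against 4 in that of experiment 20 to 35.

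No paired analysis was possible because the result comes from no test: title numbers shared by the groups only name libraries.

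Depth limits detection: in a library thinned to 400000 counts, 0 counts allow a transcript a level of up to 3 counts.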
